A study of Mus musculus with 17 samples.

Results

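A set of 297 genomic regions is described here whose accessible chromatin was listed in diabetic kidneys and not in healthy ones when lists of equal length were compared. A region entered the set when an ATAC-seq summit, the point within a peak where accessibility is highest, lay in it in none of 5 healthy mice, in at least 3 of 6 untreated diabetic mice and in at least 3 of 6 diabetic mice given dapagliflozin. To compare lists of equal length, each library was cut to the number of summits in the shortest list, strongest first, and these summits were extended by 250 bp to either side and merged across libraries. The 297 regions are 0.579% of the 51291 autosomal regions found in at least 2 libraries, and 116418 merged regions were found in all. Most of the regions had a weaker summit in some healthy mouse beyond the end of these lists. The regions were chosen by their absence from the Ctrl lists and presence in the db/db lists, so these values are given as a description and were not tested.

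ATAC-seq, which reads out open chromatin by the insertion of a transposase, was applied to 17 mouse kidneys with 20000 cells per library. Ctrl mice (n = 5) were wild-type C57BL/6 males given saline. Case mice (n = 6) were db/db males on a BKS background, which lack a functional long form of the leptin receptor and become obese and diabetic, and were given saline as well. Dapa mice (n = 6) were db/db males given 1 mg/kg/day of dapagliflozin, which blocks the kidney glucose transporter SGLT2, for 6 weeks. All treatments began at 8 weeks of age and were given by gavage, and the libraries are numbered as separate mice. Both db/db groups differ from Ctrl in mutation, in diabetes and in strain at once, and these cannot be told apart. In bulk kidney, more cells of a type and more open chromatin per cell cannot be told apart either.

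Open chromatin marks promoters, where transcription starts, and enhancers, which lie in introns or between genes and act on promoters at a distance. Most of the kidney's mass is tubule epithelium, with the proximal tubule reabsorbing glucose, phosphate and filtered protein. In diabetic kidney disease, stressed tubule cells are known to switch on injury, interferon and inflammatory genes, and AP-1 factors of the Fos and Jun families bind many of the enhancers that open under stress. A short read from a sequence with near-identical copies elsewhere in the genome cannot be placed with certainty, and families of such copies differ in number between mouse strains.

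The sequences on which the results turn are shown first, all from the RefSeq mouse genome (GRCm38.p6, the build mm10) and on the plus strand. The region between Frmpd1 and its neighbours was found in all 12 db/db mice, and the 300 bases at its centre (chr4:45165493-45165792) consist largely of a short tandem repeat. Capitals mark a word of 14 letters that returns 6 times, at steps of 31 or 32 bases.
Frmpd1: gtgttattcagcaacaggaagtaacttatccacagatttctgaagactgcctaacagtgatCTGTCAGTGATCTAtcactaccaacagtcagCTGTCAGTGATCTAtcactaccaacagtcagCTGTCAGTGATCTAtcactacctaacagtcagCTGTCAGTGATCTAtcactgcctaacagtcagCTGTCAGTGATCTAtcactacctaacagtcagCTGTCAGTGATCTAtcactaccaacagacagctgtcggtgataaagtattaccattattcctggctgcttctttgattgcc
The intergenic region nearest to Gm43269 (chr5:119894772-119895071), found in 10 db/db mice and in no Ctrl list of any length, was also a tandem repeat. Capitals mark the first 60 bases, and the window was 95% identical to itself when shifted by 60 bases.
Gm43269: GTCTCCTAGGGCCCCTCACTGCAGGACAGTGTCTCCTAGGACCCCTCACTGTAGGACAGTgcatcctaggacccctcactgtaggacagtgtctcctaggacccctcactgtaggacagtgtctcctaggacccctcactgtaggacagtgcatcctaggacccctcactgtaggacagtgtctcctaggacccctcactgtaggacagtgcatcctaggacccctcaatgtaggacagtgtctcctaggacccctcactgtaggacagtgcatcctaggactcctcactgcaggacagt
The region in C130026I21Rik was the other one found in all 12 db/db mice, and it is shown beside another copy on the same chromosome as an example of the regions that have near-identical copies. Over the 300 bases (chr1:85068439-85068738 and chr1:85341599-85341898) the copies differed at 3 bases, which are in capitals.
C130026I21Rik: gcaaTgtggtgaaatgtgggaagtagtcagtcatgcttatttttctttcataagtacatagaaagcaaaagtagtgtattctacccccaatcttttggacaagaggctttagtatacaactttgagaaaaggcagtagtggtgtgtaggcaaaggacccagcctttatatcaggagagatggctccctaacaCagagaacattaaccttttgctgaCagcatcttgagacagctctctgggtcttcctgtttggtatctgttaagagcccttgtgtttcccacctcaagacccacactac
C130026I21Rik copy: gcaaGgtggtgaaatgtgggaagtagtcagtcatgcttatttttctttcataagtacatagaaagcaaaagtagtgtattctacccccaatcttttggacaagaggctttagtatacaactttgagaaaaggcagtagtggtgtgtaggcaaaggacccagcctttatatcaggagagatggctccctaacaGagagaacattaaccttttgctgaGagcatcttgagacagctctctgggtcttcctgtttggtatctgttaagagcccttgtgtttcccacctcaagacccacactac
The region at the start of Ifit3, an interferon-induced gene, is shown for its matches to the motif of the IRF factors, which switch on interferon genes. The 294 bases (chr19:34583237-34583530) end at the base before the gene, and capitals mark 2 matches to the IRF motif, read on the minus strand, and then an AP-1 match.
Ifit3: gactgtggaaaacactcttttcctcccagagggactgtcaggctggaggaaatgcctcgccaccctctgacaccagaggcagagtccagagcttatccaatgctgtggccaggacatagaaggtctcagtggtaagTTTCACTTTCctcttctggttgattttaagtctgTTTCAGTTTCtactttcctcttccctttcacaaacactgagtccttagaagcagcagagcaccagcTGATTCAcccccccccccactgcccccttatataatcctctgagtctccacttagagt
The region in an intron of Lrp2, the gene of the proximal tubule receptor megalin, held letters of both a tubule factor and a stress factor. In the 300 bases (chr2:69445960-69446259) capitals mark an HNF4 match (CAAAGTCCA, here on the minus strand), a TEAD match (GGAATG) and an AP-1 match, in this order.
Lrp2: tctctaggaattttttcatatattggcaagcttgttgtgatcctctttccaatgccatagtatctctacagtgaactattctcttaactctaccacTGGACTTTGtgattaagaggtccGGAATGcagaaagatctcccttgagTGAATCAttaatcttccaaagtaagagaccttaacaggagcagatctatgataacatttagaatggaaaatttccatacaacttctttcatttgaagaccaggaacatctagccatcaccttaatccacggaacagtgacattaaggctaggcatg
Of the 59 regions at a transcription start, 8 held the AP-1 letters TGANTCA, and the match nearest to the centre is shown in capitals with 11 bases to either side.
Sgms1: agctaatgaagTGAGTCAggccccgcgca
Ifit3: agagcaccagcTGATTCAccccccccccc
Tagln2: agggcggtgggTGACTCAtccacattaac
Gm11618: aatgacctctaTGAGTCActtgaagtcaa
Gm53: tggctgcgagcTGATTCAacgccagggcg
Tnfrsf12a: gtccttggaggTGAATCAccacctcgccc
Lrp8: tagtctgggtgTGAGTCAtggggccaaca
Gm45407: agccgtagctaTGACTCAccatgtgggtc
These lie at chr19:32211050-32211078 (Sgms1), chr19:34583462-34583490 (Ifit3), chr1:172501119-172501147 (Tagln2), chr11:101351878-101351906 (Gm11618), chr11:96261725-96261753 (Gm53), chr17:23675857-23675885 (Tnfrsf12a), chr4:107803957-107803985 (Lrp8) and chr8:77372271-77372299 (Gm45407). Each match says that the letters are present and not that a factor was bound.

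The 297 regions were weak summits in most mice, and 2 measurements set how the label "gained" can be read. First, absence from the equal-length lists of Ctrl mice was seldom absence from their complete lists. Ctrl 1, 2, 3, 4 and 5 had a summit in 90, 109, 116, 59 and 46 of the 297 regions when all their summits were used. At least 1 Ctrl mouse had one in 230 regions (77.4%), and 67 regions had none in any Ctrl list. Ctrl complete lists were the longest on average, with overlap between the groups, at 45444 ± 7197 summits (SD, n = 5) against 37299 ± 8784 in Case and 40574 ± 6987 in Dapa (SD, n = 6 each). The lists ended at a score of 4.72 ± 0.687 in Ctrl mice, whereas Case lists ended at 3.38 ± 1.18 and Dapa lists at 3.92 ± 0.574 (SD). Its part in the absence from the Ctrl lists was not tested. Ranked within their own complete list, with 100% for the strongest summit, the regions had a median rank of 13.6% to 34.8% in the Ctrl mice that had them, of 36.3% to 55.5% in Case mice and of 42.4% to 58.2% in Dapa mice. The rule sets this order, since it admits a region only where its Ctrl summits fall below the cutoff. In the following, ranks of Case and Dapa mice are in the equal-length lists unless the complete lists are named, whereas Ctrl ranks are always in the complete lists, so that the 2 scales cannot be set against each other.

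Second, membership depended on where the lists were ended. With all summits, 172 regions met the same counts, and 63 of the 297 were among them. With lists of 50% of that length, 282 regions met them, and 5 of the 297 were among them. Many summits shared the score at which a list ended, up to 4351 in a library, and the order of the deposited file decided which of them stayed in. Of the 297 regions, 258 stayed in the set under each of 3 other treatments of these ties. The region near Frmpd1 was not among them: in Ctrl 4 it had a summit at exactly the cutoff score, with a rank of 28.4% in the complete list, and it left the set when tied summits were included.

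Each db/db mouse had a summit in roughly similar numbers of the regions. The Case mice 1 to 6 had one in 204, 149, 144, 183, 205 and 173 regions, a mean of 176 ± 26.2 (SD, n = 6). The Dapa mice 7 to 12 had one in 183, 174, 168, 186, 185 and 191 regions, a mean of 181 ± 8.52 (SD, n = 6). All Dapa values lay within the range of the Case values. In the complete lists the numbers ran from 144 to 258 in Case and from 180 to 230 in Dapa, so every db/db mouse exceeded every Ctrl mouse, a gap that the rule itself favours.

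**Figure D1:**
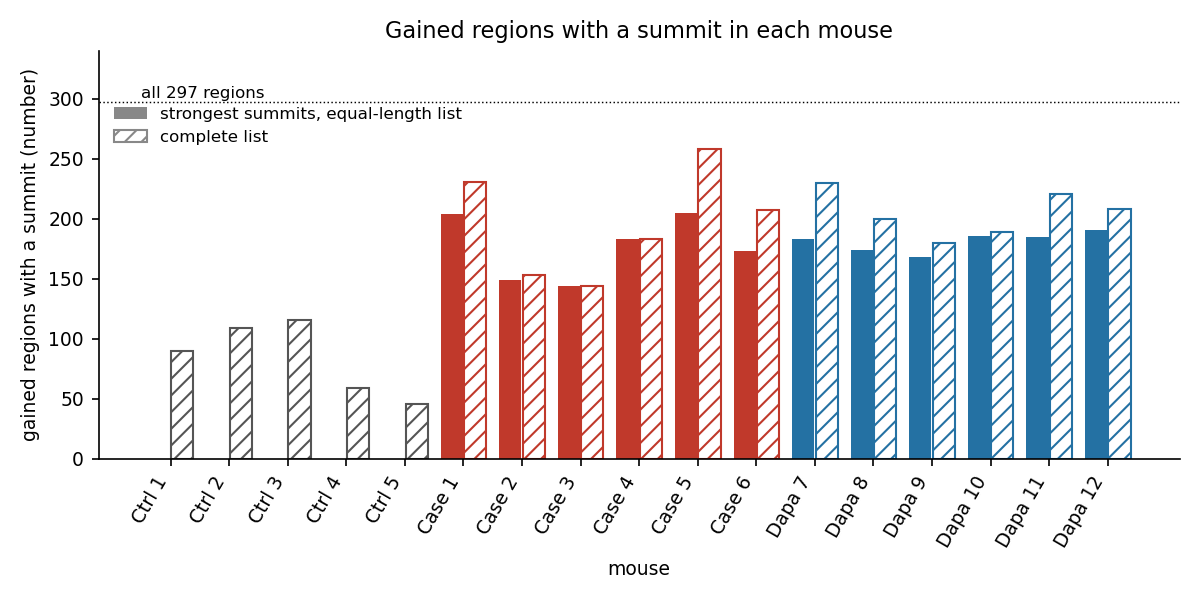
Number of the 297 gained regions with a summit (vertical axis) in each of 17 mice (horizontal axis), with the equal-length list as filled bars and the complete list as hatched bars, in grey for Ctrl, red for Case and blue for Dapa. Filled bars are 0 in Ctrl by the rule, and hatched bars reach 46 to 116 in Ctrl and 144 to 258 in db/db mice.

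Most regions were found in little more than the smallest number of mice the rule allows. Of the 297, 96 were found in 6 db/db mice, 100 in 7, 59 in 8, 29 in 9, 9 in 10, 2 in 11 and 2 in all 12. In 96 regions both groups stood at the minimum of 3 mice. In all 6 Case mice 4 regions were found and in all 6 Dapa mice 10. As a set the regions were of low rank: the median of their mean rank was 34.2%, against 38% in 11516 other autosomal regions found in 6 to 12 libraries and 81.0% in the 7789 regions found in all 17 libraries.

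**Figure D2:**
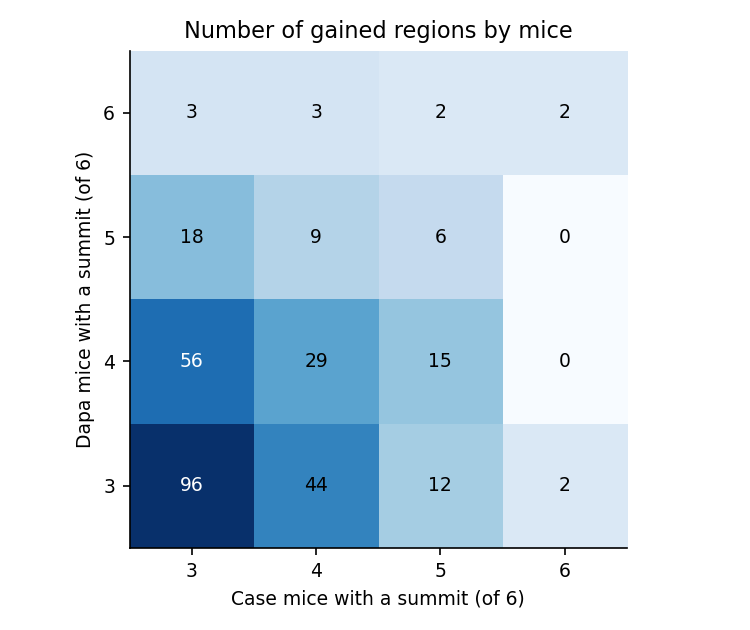
Number of gained regions by how many of 6 Case mice (horizontal axis) and of 6 Dapa mice (vertical axis) had a summit, with darker blue for more regions. The lower left corner holds 96 regions at 3 and 3 mice, and the upper right corner holds the 2 found in all 12.

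The region near Frmpd1 (chr4:45165379-45165909, intergenic, 19232 bases from the start of Frmpd1, which encodes a FERM and PDZ domain protein) had the highest mean rank of the set, 67.1%. Its rank was lowest at 28.2%, with a median of 62.2% and a highest value of 91.2%, in the 6 Case mice. In the 6 Dapa mice it ran from 43.3% to 83.8% with a median of 71.7%. The groups overlapped, and both lay mostly in the upper part of the lists. In the complete lists it ranked from 44.3% to 91.2% in Case and from 49.7% to 87.4% in Dapa, against the 28.4% of Ctrl 4.

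The region in C130026I21Rik (chr1:85067930-85069055, intron) was weaker and was present in all 17 complete lists. Its ranks ran from 20.2% to 62.8% with a median of 30.8% in Case and from 18.3% to 43.0% with a median of 30.9% in Dapa. In the complete lists its rank was 29.7%, 22.1%, 29.6%, 20.1% and 19.5% in Ctrl 1 to 5, from 24.2% to 64.6% (median 52.8%) in Case and from 26.1% to 64.4% (median 49.6%) in Dapa. It lay below the cutoff in Ctrl rather than being absent, and it has 4 other copies in the reference genome, between 98.0% and 99.0% identical to it, all on chromosome 1.

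The next regions by number of mice mixed copied and single-copy sequence. The regions near Gm48351 and in Usp17le, a gene of a deubiquitinase family, were found in 5 Case and 6 Dapa mice, had 3 and 7 other copies, and had a Ctrl summit in 3 and 2 complete lists. An exon of Cxcr5, the chemokine receptor that guides B cells into follicles, held a region (chr9:44512363-44513006, in an annotated UTR) in 5 Case mice with ranks of 21.9% to 78.4% (median 51.6%) and in 5 Dapa mice with ranks of 46.1% to 74.1% (median 52.6%). Its Ctrl summits were limited to Ctrl 2, at 46.3% of the complete list. The promoter of Crybg2 (chr4:134078601-134079196, 25 bases from the start) was found in 4 Case mice at 18.7% to 80.2% (median 45.5%) and in 6 Dapa mice at 15.2% to 64.4% (median 48.5%), and again in the complete list of Ctrl 2, at 47.1%.

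Of the other 6 among the 12 most shared regions, those near Gm23497 (4 Case, 6 Dapa) and Gm43269 (5 Case, 5 Dapa) had no Ctrl summit in any complete list. The regions near Il17b, a cytokine gene, near Rybp, which encodes a polycomb protein, at the promoter of Sept14, which encodes a septin, and near V1rg10, a vomeronasal receptor pseudogene, were found in 5 Case and 5 Dapa mice each. They had a Ctrl summit in 2, 1, 1 and 3 complete lists. The V1rg10 region had 4 other copies, and no other copy was found for the other 5. A 13th region, nearest to the autophagy gene Atg7, was found in as many mice as the last of these (4 Case, 6 Dapa) and was placed after them for its lower mean rank, 28.8%. It had 58 other copies and no Ctrl summit in any complete list.

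**Figure D3:**
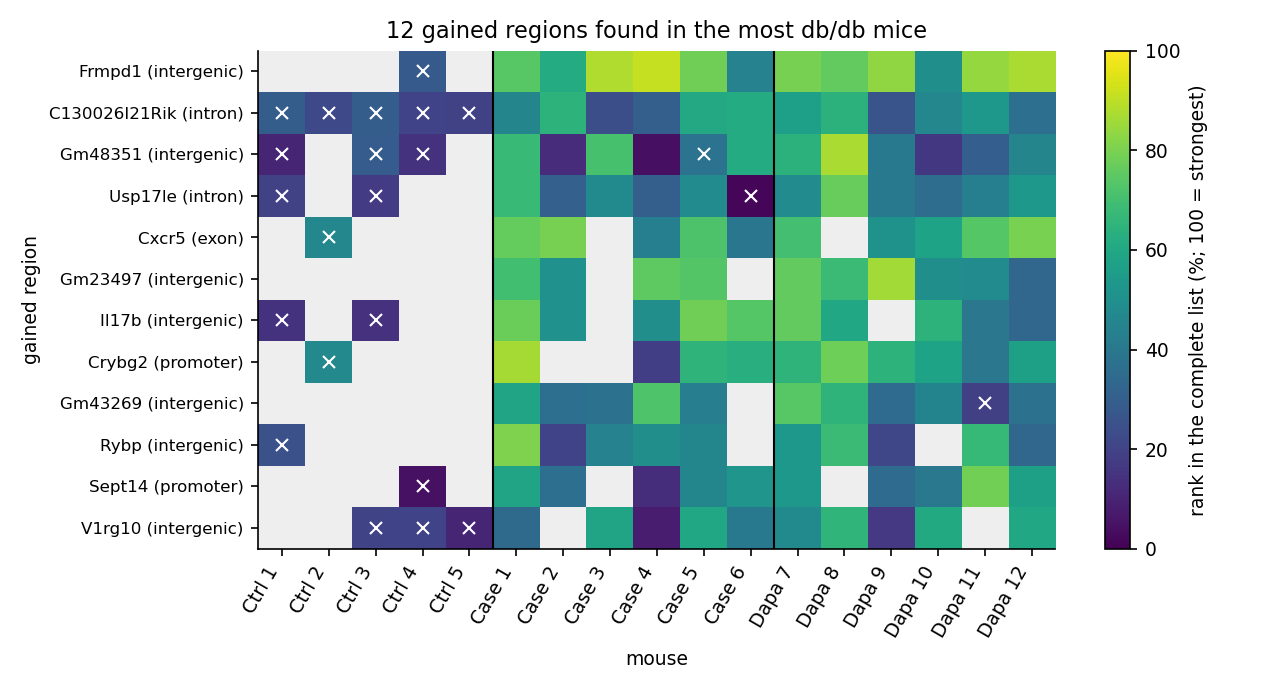
Rank of the 12 gained regions found in the most db/db mice (rows) in the complete list of each of 17 mice (columns), from 0% (dark) to 100% (yellow, the strongest summit), with grey where no summit was found and a white cross where the summit fell below the equal-length cutoff. Ctrl columns are grey or crossed, and the row of Frmpd1 is the brightest, with ranks of 44.3% to 91.2% in the Case mice.

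With the list length used here, fewer regions of the set lay at promoters than among other regions. A protein-coding promoter, within 1 kb of a transcription start, held 34 regions (11.4%), against 19.2% of the other regions in 6 to 12 libraries and 25.8% of all autosomal regions in at least 2 libraries. Other promoters held 25 (8.42% against 7.20% and 6.43%). Introns held 117 (39.4% against 39.2% and 33.6%), intergenic sequence 105 (35.4% against 29.9% and 30.3%) and exons 16 (5.39% against 4.55% and 3.90%). The share at any promoter was 19.9%, against 26.4% and 32.2%, but it was 31.2% in the set found with lists of 50% of the length and 27.9% in that found with 100 bp extensions, and the shares of other regions were not computed there. The distance to the nearest start, with a median of 5010 bases, was nevertheless close to the 5296 and 4586 bases of the other regions, and outside promoters it was shorter (7431 against 9369 and 10402). The median GC content of the 301 bases at the centre was 52.5%, against 51.2% and 52.2%. These shares are descriptions with no test, here and in the next paragraphs.

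At the list length used here, sequence with other copies in the genome was more frequent in the set than among other regions. The share in the set itself moved with the length of the lists. For 83 regions (27.9%, 95% Wilson interval 23.1% to 33.3%, which covers counting error only), the 301 bases had at least 1 other place in the genome with at least 90% identity over at least 80% of their length. The share was 9.20% in other regions found in 6 to 12 libraries and 14.8% in all regions. In the set found with lists of 50% of the length it was 17.7%, a setting under which the shares of other regions were not computed. Of the 83, 76 had a copy on the same chromosome and 68 within 5 Mb, and the median number of copies was 5. The highest number was 100, which is the limit of the search and therefore a lower bound. Copies were frequent in intergenic regions (40 of 105, 38.1%). The share was 14.5% of other intergenic regions in 6 to 12 libraries and 26.5% of all intergenic regions. Copies were rare at protein-coding promoters (2 of 34, 5.88% against 3.57% and 3.28%). Bases marked as repeats covered over 50% of the window in 52 regions (17.5%, against 7.35% and 12.7%). Tandem repeats, taken as windows at least 80% identical to themselves at a shift of 10 to 100 bases, made up 23 regions (7.74%, against 2.35% and 2.51%). This measure allows no gaps and so does not count the Frmpd1 repeat, whose unit varies in length. Together, 94 regions had other copies or were tandem repeats by these measures. Neither was detected in the other 203, which include the Frmpd1 region.

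Regions with other copies were more often visible in at least 1 Ctrl mouse. At least 1 Ctrl complete list held 71 of these 83 (85.5%), against 159 of the 214 regions with no other copy (74.3%). By mouse, the shares were 42.2% against 25.7% in Ctrl 1, 47.0% against 36.0% in Ctrl 3, 24.1% against 18.2% in Ctrl 4 and 34.9% against 7.94% in Ctrl 5. In Ctrl 2 the order was reversed (34.9% against 37.4%). The ranks of regions with other copies were lower, with a median mean rank of 31.2% against 37.1%. In each Case mouse the equal-length list held between 37 and 65 of the 83 (median 52.0) and in each Dapa mouse between 40 and 58 (median 53.0). Case 3, with the fewest regions of all (144), had the most of these (65), and Case 5, with the most regions (205), had the fewest (37). This contrast was limited to the equal-length lists: in the complete lists Case 3 had 65 of the 83 and Case 5 had 64. How far reads from these copies can be placed was not tested.

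**Figure D4:**
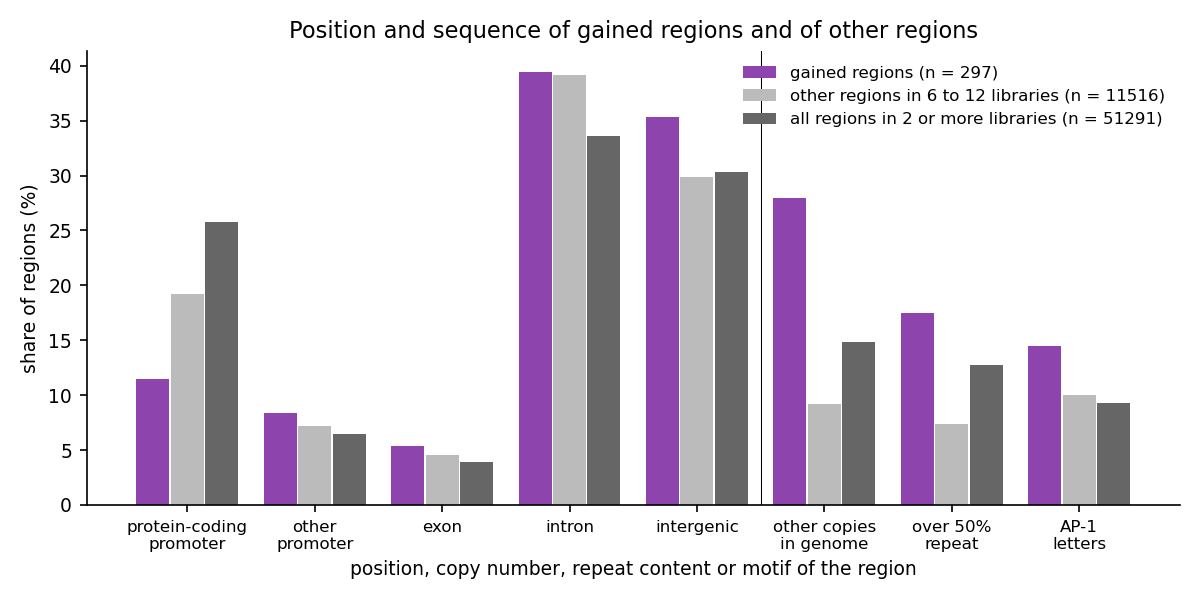
Share of regions (vertical axis, %) in each position class, with other copies in the genome, with over 50% repeat sequence and with the AP-1 letters, for the 297 gained regions (purple), 11516 other regions in 6 to 12 libraries (light grey) and all 51291 regions in at least 2 libraries (dark grey). Gained regions have fewer protein-coding promoters (11.4%) and more other copies (27.9%) than both.

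The letters of 22 factor motifs were searched on both strands in the central 301 bases. AP-1 (TGANTCA) was found in 43 regions (14.5%), against 9.99% of other regions in 6 to 12 libraries and 9.30% of all regions of the same length. Among regions with no other copy the share was 41 of 214 (19.2%), against 10.3% and 9.68%. AP-1 was singled out after the shares of all 22 had been seen. Its share was not computed at other list lengths. It was not computed outside promoters alone either, and the regions compared held more promoters than the set. The SP1 letters (GGGGCGGGG), typical of GC-rich promoters, were found in 4 regions (1.35%, against 4.65% and 6.98%), and the CTCF core, bound by the factor that borders chromatin loops, in 15 (5.05% against 8.57% and 7.53%). The HNF4 letters (CAAAGTCCA) were found in 7 regions (2.36% against 3.18% and 2.17%), among them Lrp2. The IRF motif was found in 4 (1.35% against 2.97% and 2.49%), among them Ifit3. TEAD (GGAATG, 16.8% against 17.5% and 15.8%) and NRF2 (TGACNNNGC, 14.1% against 14.5% and 14.2%) stood near the shares of other regions.

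Genes of the interferon response had regions close by in a few cases. Of 51 interferon and antigen presentation genes, 6 (11.8%) had a gained region within 50 kb and 4 (7.84%) within 10 kb, against 3.36% and 1.26% of all 20807 autosomal protein-coding genes. The regions at Ifit3 and Ifi35 lay at their starts. At Ifit3 (chr19:34583052-34583671, 144 bases from the start), which encodes an antiviral protein, 4 Case mice had ranks of 2.81% to 73.5% (median 61.1%) and 4 Dapa mice of 22.1% to 48.8% (median 34.4%). Among Ctrl, Ctrl 3 alone had a summit there, at 33.4% of its complete list. Its 301 bases have another copy on chromosome 19 that is 97.1% identical, and how its reads were placed between the copies was not tested. The same region lay 6968 bases from Ifit2, a member of the same family.

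At the start of Ifi35 (chr11:101448075-101448961, 25 bases away), an interferon-induced gene, 3 Case mice had ranks of 41.8% to 48.1% (median 44.2%) and 4 Dapa mice of 11.4% to 53.1% (median 32.9%). Ctrl 1 had a summit at 14.5% of its complete list. The region 6623 bases from H2-D1, a class I antigen presentation gene, was found in 3 mice of each group, with a median rank of 30.0% in Case and 24.7% in Dapa, and in the complete list of Ctrl 5 at 10.4%. Bst2, an antiviral membrane protein, and Sp110, a nuclear body protein, had a region at 31291 and 42500 bases. The region counted for Bst2 is the one at the promoter of another gene, Slc27a1, which is named again below. The region near Sp110 has 3 other copies. A region 1586 bases from a start of Ifitm3, an antiviral gene that was not on the list and was noticed after the values were seen, had no Ctrl summit in any complete list and was found in 3 Case mice at 26.8% to 71.7% and in 4 Dapa mice at 6.37% to 60.3%.

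Among 40 kidney epithelium genes, 6 had a region within 50 kb, and in 4 (10.0%, against 0.716% of all protein-coding genes) it lay inside the gene. In the intron of Lrp2 (chr2:69445831-69446432), 4 Case mice had ranks of 6.25% to 61.7% (median 40.2%) and 4 Dapa mice of 25.5% to 52.4% (median 40.6%), and Ctrl 1 had a summit at 24.9% of its complete list. In an intron of Pax2, a transcription factor of kidney development, 4 Case mice had ranks of 12.8% to 73.4% (median 51.2%) and 4 Dapa mice of 3.26% to 66.7% (median 13.4%). Ctrl 1 had a summit there at 14.5% of its complete list, and the region did not stay in the set under every treatment of ties. In an intron of Aqp3, a water channel of the collecting duct, 3 Case mice (27.4% to 55.5%) and 4 Dapa mice (5.29% to 48.7%) had a summit, as did 3 Ctrl mice in their complete lists, at 29.0%, 1.86% and 7.11%.

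In an exon of Slc12a3, the sodium-chloride cotransporter of the distal tubule, 3 mice of each group had a summit at 8.21% to 21.5% in Case and 7.66% to 19.9% in Dapa. In the complete lists, Ctrl 1, 2 and 3 had one as well, at 20.5%, 46.1% and 9.80%, beside 12.6% to 39.2% in 4 Case mice and 27.6% to 49.7% in 3 Dapa mice, so the groups overlapped. Slc34a1, a phosphate transporter, and Slc22a12, a urate transporter, had a region at 27825 and 43581 bases. The start of Lrp2 and that of Slc12a3 had summits in all 17 libraries, so these regions are additional to an open promoter. Of other markers used to check the tissue, the start of Hnf4a, a proximal tubule transcription factor, had a summit in 17 libraries and that of Slc34a1 in 16. Slc12a1 and Aqp2, which define the thick ascending limb and the collecting duct, had none in any library, but other markers of these segments, Umod and Atp6v1b1, had one in 8 and 4. Slc5a2 had one in 4 Ctrl mice, 1 Case mouse and 4 Dapa mice, and the podocyte gene Nphs1 in 3 Case mice. The leukocyte marker Ptprc and the endothelial marker Pecam1 had none, while Kdr of the endothelium had one in 2 libraries and Csf1r and Cd3e of leukocytes in 1 each. The part of cell makeup in the results was not tested.

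Of 26 tubular injury genes, 3 (11.5%, against 3.36% of all autosomal protein-coding genes) had a region within 50 kb. Timp1, counted among the 26, lies on chromosome X and could not have had one, since the set is autosomal. At Tnfrsf12a, the receptor of the cytokine TWEAK, the region lay 675 bases from a start (chr17:23675585-23676194). It was found in 3 Case mice at 9.32% to 53.8% (median 45.1%) and in 4 Dapa mice at 13% to 31.8% (median 25.6%), and in no Ctrl list of any length. Its AP-1 letters are shown above. Vim, an intermediate filament gene, and Fosl1, which encodes an AP-1 subunit, had a region at 34383 and 38480 bases, and the region near Vim had 62 other copies. Of 40 glucose metabolism genes, Lepr and G6pc, the glucose-6-phosphatase gene, had a region (5.00%, again against 3.36%), that of G6pc at 15751 bases.

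The region in Lepr, the gene mutated in db/db mice, lay in an intron (chr4:101769188-101770365, 1564 bases from a start). In 5 Case mice it ranked from 3.35% to 33.2% (median 26.8%) and in 3 Dapa mice from 5.65% to 27.6% (median 27.2%). Among the complete lists, Ctrl 2 and Ctrl 4 had a summit there at 29.6% and 28.4%, beside 13.2% to 57.6% in 5 Case mice and 12.8% to 54.8% in 5 Dapa mice, so the groups overlapped. The window was 98.6% identical to itself at a shift of 24 bases, so it is a tandem repeat. It had 2 other copies in the genome, and the region did not stay in the set under every treatment of ties. Of 40 inflammatory chemokine and NF-kB genes, Cxcl12, a chemokine that binds CXCR4, had one (2.50%), and of 30 leukocyte genes Cd4 had one at 28003 bases (3.33%). In the intron of Cxcl12 (chr6:117169863-117170721, 1612 bases from a start), 3 Case mice had ranks of 43.8% to 80.9% (median 45.9%) and 5 Dapa mice of 48.4% to 74.7% (median 67.6%). Ctrl 2 and Ctrl 4 had summits at 37.2% and 9.03% in the complete lists, beside 2.47% to 81.8% in 5 Case mice and 9.66% to 80.9% in 6 Dapa mice.

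No gained region lay within 50 kb of any of 30 fibrosis genes, 39 fatty acid oxidation genes, 22 endothelial genes or 20 housekeeping genes. Among the housekeeping genes, Hprt lies on chromosome X and could not have had a region of this autosomal set. No gained region lay within 50 kb of Isg15, Btla, Csf2rb or Slc5a2 (which encodes SGLT2) either, and the nearest was 121708 bases from Isg15. The rule excludes regions lost in db/db mice and bounds the differences between Case and Dapa. This absence therefore says nothing on the changes in accessibility that the study reported at Isg15, Btla and Csf2rb. With lists of 20 to 51 genes, a share of 3.36% amounts to few genes, so these counts were not read as a difference between lists.

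The protein-coding promoters of the set with the highest mean rank were those of Gm21992 (61.0%), Best2 (54.8%), Pink1 (49.1%), Kmt5a (48.6%) and Crybg2 (46.9%). Best2 encodes a chloride channel, Pink1 a kinase that marks damaged mitochondria for removal, and Kmt5a a histone H4 methyltransferase. At Pink1 (chr4:138326019-138326632, 36 bases from the start), 4 Case mice had ranks of 33.2% to 55.3% (median 43.9%) and 3 Dapa mice of 45.9% to 72.8% (median 48.7%), with no Ctrl summit in any complete list. At Kmt5a, 3 Ctrl mice had a summit in their complete lists. Among promoters chosen after the values were seen for their roles in metabolism were those of Slc2a5, the fructose transporter GLUT5 (3 Case, 4 Dapa), of Slc27a1, a fatty acid transport protein (3 and 3), of Slc38a3, a glutamine transporter of the proximal tubule (4 and 4), and of Ldha, a lactate dehydrogenase subunit (3 and 3). Ldha had a Ctrl summit in 4 complete lists, Slc38a3 in 2 and the others in 1 each.

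Outside protein-coding promoters, the highest mean ranks by class were as follows. At other starts they were those of Lrp8 (53.7%), a lipoprotein receptor, Snord85 (52.1%), Gm45407 (48.8%), Gm53 (41.4%) and Coq8a (39.0%), a gene of coenzyme Q synthesis. In exons they were Cxcr5 (54.7%), Pgls (52.8%), an enzyme of the pentose phosphate pathway, Cbln3 (46.5%), Fam171a2 (45.8%) and Pisd-ps2 (44.3%). In introns they were Sipa1l1 (63.8%), Cxcl12 (60.6%), Scn8a (58.4%), a sodium channel, Galnt17 (55.5%) and Adgrl3 (55.5%). Between genes, Frmpd1 was followed by Gm49473 (62.1%), Copg1 (55.8%), a coat protein of Golgi vesicles, Nnmt (55.4%), a methyltransferase of nicotinamide, and Gm45612 (54.9%). Of these 20 regions, Pgls, Pisd-ps2 and Adgrl3 had no Ctrl summit in any complete list. The Pisd-ps2 region had at least 1 other copy in the genome. The Galnt17 region was a tandem repeat, 88.7% identical to itself at a shift of 54 bases.

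The regions were spread over all 19 autosomes, with more on chromosomes 4 and 19. Chromosome 4 held 38 (12.8%, against 7.28% of all regions), of which 11 had other copies, and chromosome 19 held 21 (7.07% against 3.02%), of which 2 had. Within 100 kb of another gained region lay 52 (17.5%, and 11.4% of the set found without Case 1), and 131 lay within 1 Mb. The densest 5-Mb window, from 145 to 150 Mb of chromosome 4, held 10 regions, 7 of them with other copies, at predicted genes such as Gm20760 (5 Case, 4 Dapa), Gm21411 (5 and 3) and Gm26573 (3 and 6). From 85 to 90 Mb of chromosome 1, 6 regions, including those in C130026I21Rik and at Gm2619 (4 and 4), all had other copies and all had a Ctrl summit in a complete list. From 5 to 10 Mb of chromosome 19, by contrast, none of 6 regions had another copy. They included Ovol1 (5 and 3), an epithelial transcription factor, Batf2 (3 and 5), an interferon-induced AP-1 family factor, and Malat1 (4 and 3), a nuclear long noncoding RNA. From 95 to 100 Mb of chromosome 11, 5 regions with no other copy included 3 at Gm53 and 1 at Hoxb3, of the Hoxb gene cluster. The windows were picked for their number of gained regions, so these numbers are a description. Windows at 100 to 105 Mb of chromosome 11 and at 70 to 75 Mb of chromosome 8 also held 5 each, and the order of chromosomes and positions in the table decided which was described. By the share of all regions in a window, 2.23%, 1.75%, 2.06% and 1.80% in these 4, others with fewer gained regions ranked higher, such as 4.65% at 10 to 15 Mb of chromosome 5.

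**Figure D5:**
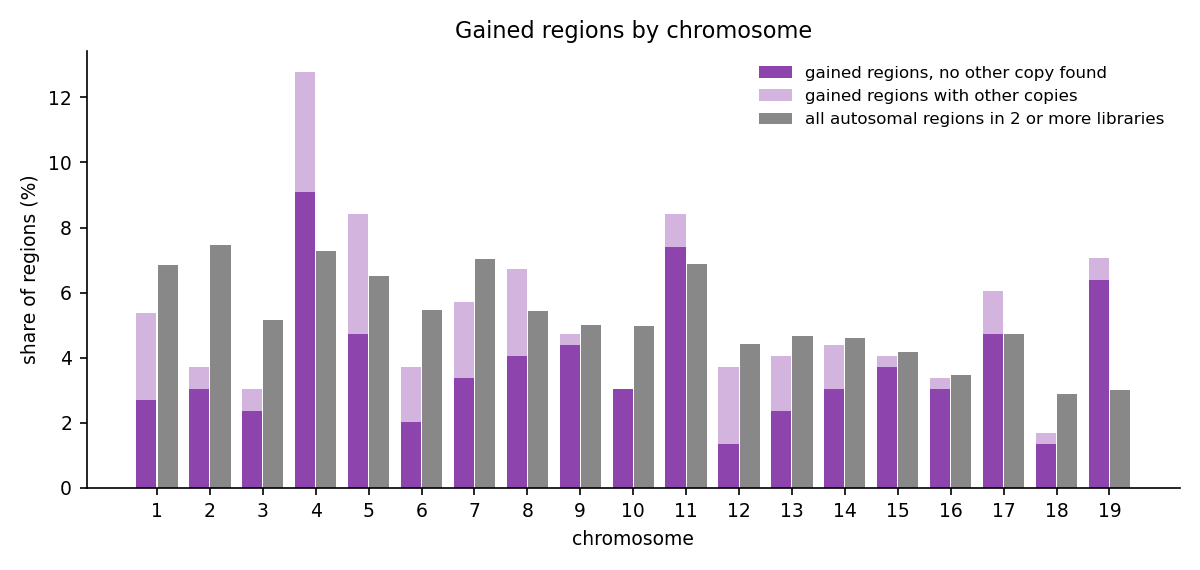
Share of regions (vertical axis, %) on each autosome (horizontal axis) for the 297 gained regions, split into those with no other copy found (purple) and those with other copies (light purple), and for all 51291 autosomal regions in at least 2 libraries (grey). Chromosomes 4 (12.8% against 7.28%) and 19 (7.07% against 3.02%) stand above the grey bars.

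Case and Dapa were compared over the autosomal regions, with p-values adjusted over all regions tested. For the set these tests cannot answer whether dapagliflozin changed a region, because the rule asks for a summit in 3 mice of both groups and so removes large differences beforehand. Fisher's test took the regions whose number of db/db libraries allows an unadjusted p under 0.05, which 196 of the 297 met and 101 did not, and the rank test took all regions found in at least 2 db/db libraries, among them the whole set. By presence, Fisher's exact test, 2-sided, called 0 of 7110 regions (0.0%) at a Benjamini-Hochberg adjusted p under 0.05. Without adjustment it called 84 (1.18%), of which 67 were found in more Dapa mice and 17 in fewer. The count of 84 rose whichever of the 12 db/db mice was left out, to between 134 (without Dapa 11) and 262 (without Case 5). In a smaller group fewer mice with a summit are enough for an unadjusted p under 0.05, so this count depends on group size too. No region of the set can go below p = 0.182 in this exact test. In the set, 91 regions were found in more Dapa than Case mice, 73 in more Case mice and 133 in as many of each.

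By rank, with 0% where a mouse had no summit, the exact permutation test over all relabellings of the 12 mice, 2-sided, called 0 of 44219 regions (0.0%) at an adjusted p under 0.05. Unadjusted, it called 702 regions (1.59%) higher and 391 (0.884%) lower in Dapa. In the set it called 0 higher and 4 lower (1.35% of 297), from which nothing is read, since the ranks of 0% are the absences that the rule limits. The smallest p this test can give, 0.00216, would have to be reached by 1915 regions for any to pass the adjustment at that p. The median rank difference, Dapa minus Case, was −0.607 percentage points in the set and 0.367 in all regions tested, with 137 of the 297 higher and 160 lower in Dapa.

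The rank differences of single regions are therefore given as a description. The 4 regions lay in introns of Gm29478 and Adgrl3, in Vmn1r79 and at the promoter of Tagln2, and each had an adjusted p of 1 in the exact permutation test. At Adgrl3, an adhesion receptor gene (chr5:81219983-81220540), 5 Case mice ranked between 58.3% and 73.7% (median 69.0%) and 3 Dapa mice between 27.6% and 45.1% (median 37.7%). The mean rank was lower in Dapa by a difference of −37.2 percentage points, the largest in the set in this direction, and the mice that had a summit did not overlap. At Tagln2, an actin-binding protein gene, 5 Case mice ranked between 10.9% and 54.3% (median 34.5%) and 3 Dapa mice between 1.31% and 14.4% (median 10.7%), a difference of −24.7 points.

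After Adgrl3, the largest differences towards Case were −27.3 points at Vmn1r79, with 6 Case and 3 Dapa mice, and −26.6 at Ovol1, with 5 and 3. Towards Dapa they were 28.6 points near Gm49473 (3 Case, 5 Dapa), 26.6 in Map2k6, a kinase that activates p38 (3 and 4), and 24.0 in Cxcl12 (3 and 5). In Map2k6 the 3 Case mice with a summit ranked between 25.8% and 28.2% and the 4 Dapa mice with a summit between 43.3% and 69.9%. The other mice of each group had no summit there in these lists. None of these passed the adjustment.

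The edge of the set was close to regions outside it. Just outside lay 617 regions with the same db/db counts and 1 Ctrl mouse, 231 with 2 Case mice and 251 with 2 Dapa mice. In the opposite pattern, 664 autosomal regions were found in at least 3 of 5 Ctrl mice and in none of 12 db/db mice. On chromosome X 4 regions met the counts of the rule and were left out of the set. Inside, at 3 and 3 mice, the highest mean ranks were those of the promoter of Gm21992 (61.0%), of Lrp8 (53.7%) and of an intron of Pitpnm2 (53.1%). Outside, they were those of the promoters of Srsf2, a splicing factor (78.1%, 4 Case and 2 Dapa mice), Dcaf1, a ubiquitin ligase subunit (74.6%, 3 and 2), and Mcm9, a DNA repair helicase (63.7%, 1 Ctrl, 4 Case and 3 Dapa).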

How the data were processed

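The authors aligned the reads of each library to mm10 with Bowtie2, removed duplicates and blacklisted regions, corrected for the offset of the transposase and called peaks with MACS2 per library; versions are not given in the sources used here. Each deposited file lists summits and a −log10 score, and whether it comes from p or q is not stated in these sources. Summits were ranked by score within each library (100% for the strongest summit, mean rank for ties). Scores were set side by side between libraries only for the cutoffs and in the alternative with a score of at least 5, and depend there on each library's unknown depth. Depth is unknown, so no counting intervals are given for single libraries.

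For each library the strongest summits, as many as in the shortest list, were extended by 250 bp and merged, with ties at the cutoff in file order. Regions were annotated at their centre with GENCODE M21 (promoter: within 1 kb of a transcription start). Copies of the central 301 bases were searched in GRCm38.p6 with minimap2 2.31 (k of 17, window 9, at most 100 further hits). Overlapping hits counted as 1, and seeds of very frequent repeats were passed over, so copy numbers are lower bounds. Python 3.11.15, scipy 1.17.1 and pandas 2.3.3 were used. The 2 tests across regions, which compared Dapa with Case, were checked on simulated data with changed regions present in all Dapa mice and no Case mouse. Such differences are larger than any the set can hold, so the check does not show what the tests can detect in it. P-values measure the spread between mice.

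The set and the 10 gene lists (337 genes, all found) were chosen with earlier results of these data known. The regions named were the 12 in most db/db mice, the 5 of highest mean rank in each class, those within 10 kb of a listed gene, up to 3 in each of the 4 densest 5-Mb windows, 3 on either side of the threshold and the 3 largest rank differences in each direction. Others are said to be chosen afterwards. The 22 motifs, the comparison with regions in 6 to 12 libraries, the AP-1 share without copies, the tandem repeat measure and the treatments of ties were also chosen after seeing the data. Alternatives were extensions of 100 and 500 bp, other list lengths, a score of at least 5, at least 4 of 6 mice, 3 kb promoters, stricter copies, each mouse left out, and Case 3 and Dapa 8 left out together. Some markers and genes are not reported here.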

Additional observations from a re-analysis of the deposited data

Results flagged for a closer look

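Dapa 9 stood apart from the other Dapa mice at promoters of the set. It had a summit in 25 of the 59 regions at a transcription start, whereas the other 5 had one in 36 to 42. In the complete lists it had one in 27, and the others in 43 to 47. At the other 238 regions it had one in 143, within the range of 137 to 151 of its group. Chance flags about 1 in 20 groups, and 34 groups of values were examined, so 1.7 would be flagged by chance and 2 were.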

How the results depend on the processing

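The number of regions (297) was 172 with all summits, 104 with scores of at least 5, 66 with at least 4 of 6 mice and 178 without Case 3 and Dapa 8. Leaving out a mouse gave 189 (without Case 5) to 450 (without Ctrl 4). The share at transcription starts (19.9%) was 27.9% with 100 bp extensions, 31.2% with lists of 50% of the length, 15.7% with all summits and 40.1% at 3 kb, and 18.4% to 22.5% with a mouse left out. The share with other copies (27.9%) was 17.7% with lists of 50% of the length, 20.2% with scores of at least 5 and 20.2% without Case 3 and Dapa 8, and 22.0% (without Case 3) to 37.0% (without Case 5) with a mouse left out. The share with a Ctrl summit in the complete lists (77.4%) was 66.8% with 100 bp extensions, 99.6% with lists of 50% of the length, 86.4% with at least 4 of 6 mice and 0.0% with all summits, where the rule makes it so, and 66.9% to 84.1% with a mouse left out.

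The mean number of regions per mouse, Dapa minus Case (4.83), ran from −15.2 to −9.40 with a Case mouse left out and from 17.6 (without Dapa 12) to 20.1 (without Dapa 9) with a Dapa mouse left out. The sign follows the group that lost a mouse, because the rule still asked for 3 of the 5 left. It was 0.400 without Case 3 and Dapa 8 and −0.333 with tied summits left out. The share within 100 kb of another gained region (17.5%) was 3.49% with all summits, 5.77% with scores of at least 5 and 11.4% to 21.8% with a mouse left out. Adjusted calls between Dapa and Case were 0 under every alternative run, which says nothing about stability, since 6 mice against 6 cannot give a p below 0.00216 in either exact test. Unadjusted presence calls by Fisher's exact test (84) were 52 with lists of 50% of the length, 44 with scores of at least 5 and 298 without Case 3 and Dapa 8, and 84 to 262 with a mouse left out, and unadjusted rank calls (1093) were 632 with lists of 50% of the length and 1022 to 1535 with a mouse left out. With a db/db mouse left out, fewer mice with a summit are enough for p under 0.05 in Fisher's exact test. The presence calls therefore depend on group size as well as on the mice, and with a Ctrl mouse left out they stayed at 84. How much of the shifts this makes up was not tested. The 3 treatments of ties gave 297 to 305 regions. No paired analysis was possible because Case mice (1 to 6) and Dapa mice (7 to 12) share no replicate number and the contrast with Ctrl was not tested.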
